A study of Mus musculus with 11 samples.

Results

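Choroid plexus marker genes were examined in the cerebral transcriptome of Polg mutator mice. The choroid plexus is a secretory epithelium that lies in the ventricles of the brain, produces cerebrospinal fluid and passes hormones, vitamins and proteins between blood and brain. Its epithelial cells make very large amounts of transthyretin and carry folate receptor, klotho, water channels and ion transporters, and the homeodomain factor OTX2 is needed for their identity. In a dissected brain the signal of such genes depends on how much plexus stayed with the tissue, so their covariation from mouse to mouse was part of the question. In these bulk samples a smaller number of plexus cells and less RNA per cell cannot be told apart.

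The markers were taken by symbol from the table of gene counts, which lists 36666 genes. They were Ttr, Kl, Folr1, Clic6, Kcnj13, Aqp1, Otx2, Prlr, Slc4a5 and Sostdc1, and all 10 were found and had enough counts to be tested. The cerebellum was removed, the cerebrum was cut along the midline, and 1 hemisphere was frozen while mitochondria were prepared from the other. RNA came from frozen cerebral tissue of 11 male C57/Bl6 mice aged 1 year. Polg mutators (D257A/D257A) made up 7 of them, a knock-in whose mitochondrial DNA polymerase lacks normal proofreading, while the other 4 were controls, of which 3 were WT/WT and 1, mouse 237, was WT/D257A. All came from crosses of heterozygotes and carry the allele, where present, in every tissue. Each mouse gave 1 library of poly(A)+ RNA. Depth, as the sum of gene counts, lay between 28249345 and 121182250 in the controls and between 37821243 and 91219204 in the mutators. Counts are given as CPM, counts brought to a common library size with edgeR's TMM factors, which lay between 0.974 and 1.02. The marker with the fewest counts had 95 in its shallowest library (Aqp1, control 246).

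Regulatory sequence was available for 6 of the 10 genes in the RefSeq promoter windows of GRCm38.p6, which run from 250 bases before to 50 bases after a transcription start. These were Kcnj13, Kl, Aqp1, Slc4a5, Otx2 and Prlr, with 11 windows in all because Otx2 and Prlr have several starts. The windows were searched on both strands for TAATCC, the core that OTX2 and related homeodomain proteins bind. It was found in 1 of the 11 windows, against 7.06% of the 32851 windows of the whole table. The match lies 211 bases before 1 of the starts of Otx2 itself. It is shown because it is the only match among the markers, with the motif in capitals, which reads GGATTA on the strand of the gene (GRCm38.p6, chr14:48665303-48665332, minus strand).
Otx2 window: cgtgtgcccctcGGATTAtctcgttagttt
A match is a description of the letters in the window. No match in the other 10 windows says only that these letters are not there.

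The markers differed widely in level, and Ttr stood far above the rest. Per kilobase of annotated exon (RPKM), the controls had 452.5 ± 63.5 of Ttr (SD, n = 4), while the mutators had 499.9 ± 51.1 (SD, n = 7). It encodes transthyretin, the carrier of thyroxine and of retinol binding protein in cerebrospinal fluid. Its reads alone made up between 0.0472% and 0.0688% of all gene counts. The RPKM of Kcnj13, Clic6 and Kl came next, with means over the controls of 4.82, 3.80 and 4.73. Their order was not fixed, since Kcnj13 exceeded Clic6 in 6 of 11 mice and Clic6 exceeded Kl in 6 of 11. Kl exceeded Sostdc1 in all 11 mice. Sostdc1 and Folr1 followed at 2.39 and 2.06 RPKM in the controls, and Aqp1 and Otx2 at 1.35 and 1.31, with Aqp1 above Otx2 in 5 of 11 mice. Prlr and Slc4a5 were lowest, at 0.672 and 0.750 RPKM in the controls. The exonic length of Prlr counts every annotated isoform, which lowers its RPKM.

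None of the 10 markers passed an adjusted p of 0.05 between mutators and controls in edgeR's quasi-likelihood test, against 223 of the 17983 genes tested (1.24%). At an unadjusted p under 0.05 there were 4, of which Prlr, Clic6 and Otx2 were higher and Folr1 lower in the mutators. The share over all genes tested was 15.8%, of which 7.18% were higher and 8.58% lower. With DESeq2, Prlr and Clic6 passed (adjusted p = 0.00856 and 0.0208), where 622 of the 15770 genes with an adjusted p did (3.94%). The median log2 fold change of the 10 was 0.17, beside 0.0014 for all genes tested, and 7 of the 10 had a value above 0, as did 50.4% of all genes tested. In 0 of the 10 did the groups separate without overlap, which happened in 2.62% of the genes tested. The markers did not share a direction, since Kl, Folr1 and Sostdc1 had values below 0.

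**Figure D1:**
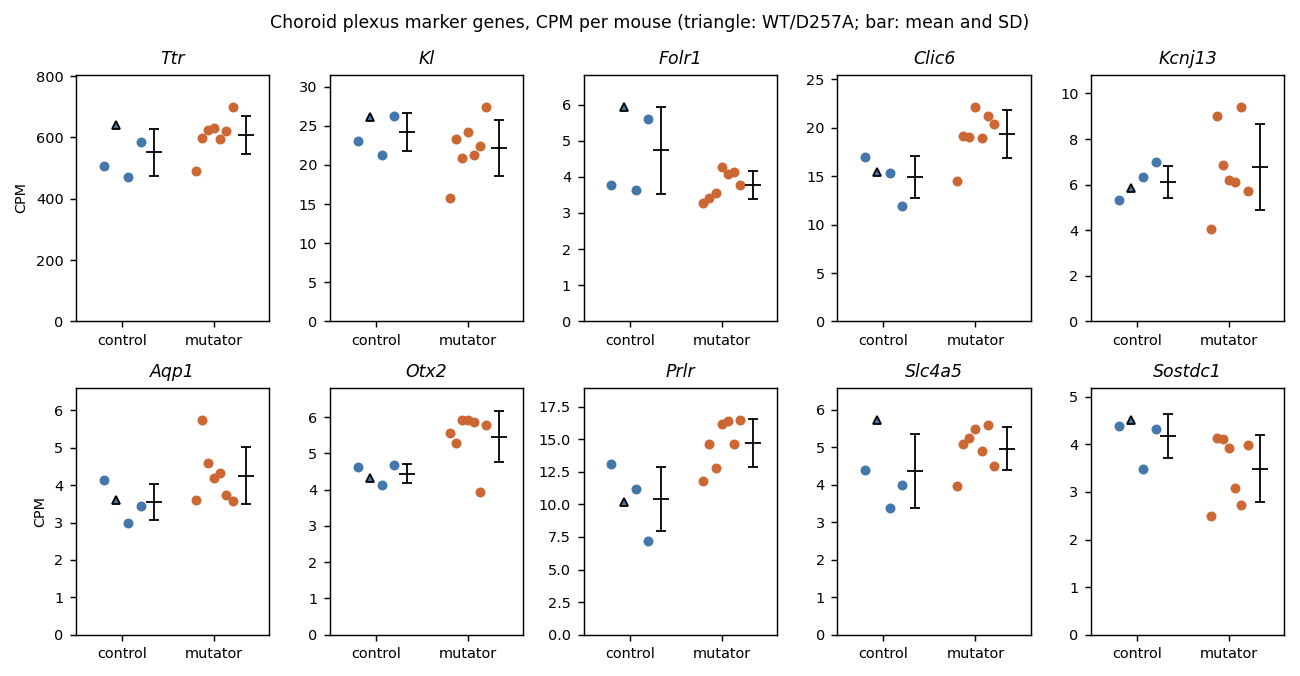
CPM of each choroid plexus marker (vertical axis, from 0) in the 4 controls and 7 mutators, 1 point per mouse, with the WT/D257A control as a triangle and the mean and SD as a bar. The groups overlap in each panel, and Prlr, Clic6, Otx2 and Aqp1 have most of their mutators above the highest control.

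Among the receptors, Prlr gave the largest difference. It encodes the prolactin receptor, a cytokine receptor that is dense in choroid plexus and also present in hypothalamic neurons, and it occupies chromosome 15, 10106993 to 10303504, plus strand (mm9). Its level was 13.1 CPM in control 205, 10.2 in 237, 11.2 in 239 and 7.19 in 246. In the mutators the lowest was 11.8, the median 14.7 and the highest 16.5. Of the 7 mutators 5 were above the highest control, and 3 of the 4 controls were below the lowest mutator. The log2 fold change was 0.47 (standard error, SE, 0.13; edgeR adjusted p = 0.0968), from means of 10.4 ± 2.5 and 14.7 ± 1.8 CPM (SD; 4 and 7 mice). Without control 205 the value was 0.60 and the edgeR adjusted p was 0.0224, so the call depends on this library. Without control 246, the lowest mouse, Prlr differed by 0.34 (edgeR adjusted p = 0.185), and without control 237 by 0.45 (edgeR adjusted p = 0.336). Annotated exons of Prlr overlap those of Agxt2 on the same strand, so reads shared by both genes are uncertain.

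The summed level of 8 hypothalamic genes was higher in each mutator than in each control. Among single genes, 2.62% of those tested had groups without overlap, and no such share was computed for sums of genes. The list was chosen with earlier results of these data known. The part of hypothalamic genes in the Prlr result was not tested. All 8 genes of the hypothalamus list had a log2 fold change above 0, with a median of 0.76, where 50.4% of all genes tested were above 0. In edgeR 0 of the 8 passed an adjusted p of 0.05, while 4 were higher at an unadjusted p under 0.05, against 7.18% of all genes tested. DESeq2 called 2 higher, Pmch and Avp, against 1.52% of genes with an adjusted p. The summed level of the 8 genes lay between 24.3 and 55.7 CPM in the controls and between 60.8 and 112.0 in the mutators. None of the 8 was at 0 in every mouse. Avp, which encodes vasopressin, averaged 7.52 ± 2.47 CPM in controls against 20.3 ± 6.5 in mutators (SD; 4 and 7 mice), which is a log2 fold change of 1.39 (SE 0.33, edgeR adjusted p = 0.0807). For Cartpt, a neuropeptide precursor, the difference was 0.92 on the log2 scale (SE 0.43, edgeR adjusted p = 0.336).

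The other receptor-like markers had values below 0. Folr1 encodes the folate receptor that carries folate across the plexus epithelium (chromosome 7 of mm9, 109006845 to 109019302, minus strand). Its level was 3.78 CPM in control 205, 5.94 in 237, 3.64 in 239 and 5.59 in 246, and 3.28, 3.77 and 4.26 in the lowest, median and highest mutator. Controls 237 and 246 were above every mutator, while 205 and 239 lay within their range. The mutators were lower by a log2 fold change of -0.30 (SE 0.14, edgeR adjusted p = 0.280), with -0.17 in the fit without control 237 and -0.41 without control 239. Kl encodes klotho, a co-receptor for FGF23 whose soluble form is found in cerebrospinal fluid (chromosome 5, 151755182 to 151796384, plus strand). Kl had 23.1, 26.1, 21.3 and 26.2 CPM in controls 205, 237, 239 and 246. The lowest mutator had 15.7, the median one 22.4 and the highest one 27.4, so the mutators reached both below and above the controls. Its log2 fold change was -0.12 (SE 0.12, edgeR adjusted p = 0.648), and -0.053 without mutator 207, its lowest mouse.

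Of the channels and transporters, Clic6 came closest to a call. It belongs to the family of chloride intracellular channels and is strongly expressed in plexus epithelium (chromosome 16, 92485981 to 92541488, plus strand). Clic6 had 17.0 CPM in control 205, 15.4 in 237, 15.3 in 239 and 11.9 in 246, against 14.5, 19.1 and 22.2 in the lowest, median and highest mutator. All mutators but mouse 207, that is 6 of 7, were above the highest control. This gave a log2 fold change of 0.36 (SE 0.10, edgeR adjusted p = 0.0922). Without mutator 207 it was 0.42 with an edgeR adjusted p of 0.0110, so the call depends on this library. Without control 246 it was 0.28 (edgeR adjusted p = 0.251).

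Kcnj13 encodes the inward rectifier potassium channel of the apical membrane (chromosome 1, 89282938 to 89291304, minus strand). Its level was 5.32, 5.85, 6.33 and 6.98 CPM in controls 205, 237, 239 and 246, and ran from 4.04 through a median of 6.21 to 9.41 in the mutators. Mutators 211 and 248 were above every control and mutator 207 was below them, which gave Kcnj13 the widest relative spread of the 10 (coefficient of variation 23.7% over all mice). Its log2 fold change was 0.16 (SE 0.19, edgeR adjusted p = 0.744), and with single mice left out it ran from 0.053 without mutator 248 to 0.26 without mutator 207. Its exons overlap those of Gigyf2 on the opposite strand, and the kit is not stated to mark strand.

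Aqp1, the water channel of the apical membrane (chromosome 6, 55286426 to 55298549, plus strand), had 4.15, 3.61, 3.00 and 3.45 CPM in the same 4 controls. The mutators ran from 3.58 through a median of 4.19 to 5.74, and 4 of 7 were above the highest control. The log2 fold change was 0.25 (SE 0.13, edgeR adjusted p = 0.380). Slc4a5, a sodium bicarbonate cotransporter of the apical membrane (chromosome 6, 83169822 to 83254939, plus strand), had 4.40, 5.73, 3.40 and 4.00 CPM in the controls. Its mutators ran from 3.96 through 5.09 to 5.61, so 1 control, mouse 237, was the highest of all. The log2 fold change was 0.19 (SE 0.13, edgeR adjusted p = 0.518) and was 0.34 without control 237 and 0.076 without control 239, with an edgeR adjusted p of 0.374 and 0.847.

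Of the secreted proteins, Ttr (chromosome 18, 20823751 to 20832825, plus strand) rests on between 16137 and 61998 counts per mouse. Its level was 507, 642, 471 and 586 CPM in controls 205, 237, 239 and 246, and 492, 622 and 700 in the lowest, median and highest mutator. One control, 239, was below every mutator and 1 mutator, 249, was above every control. Mutators exceeded controls by 0.14 on the log2 scale (SE 0.092, edgeR adjusted p = 0.481), by 0.075 without control 239 and by 0.23 without control 237. Exons of Ttr overlap those of Gm16090 on the opposite strand. Sostdc1, a secreted antagonist of BMP and Wnt signalling (chromosome 12, 37040756 to 37045039, plus strand), had 4.39, 4.51, 3.49 and 4.32 CPM in the controls and 2.50, 3.92 and 4.13 in the lowest, median and highest mutator. Mutators 207, 240 and 248 were below every control, and 3 of 4 controls were above every mutator. Its log2 fold change was -0.27 (SE 0.14, edgeR adjusted p = 0.378).

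Otx2 is the transcription factor of the group (chromosome 14, 49277354 to 49287319, minus strand). The controls were tight, at 4.63, 4.33, 4.13 and 4.69 CPM in mice 205, 237, 239 and 246. The mutators had 3.94, 5.78 and 5.92 as lowest, median and highest value, and 6 of 7 were above the highest control. The exception, mutator 248, was below all controls. On the log2 scale the difference was 0.30 (SE 0.11, edgeR adjusted p = 0.197).

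**Figure D2:**
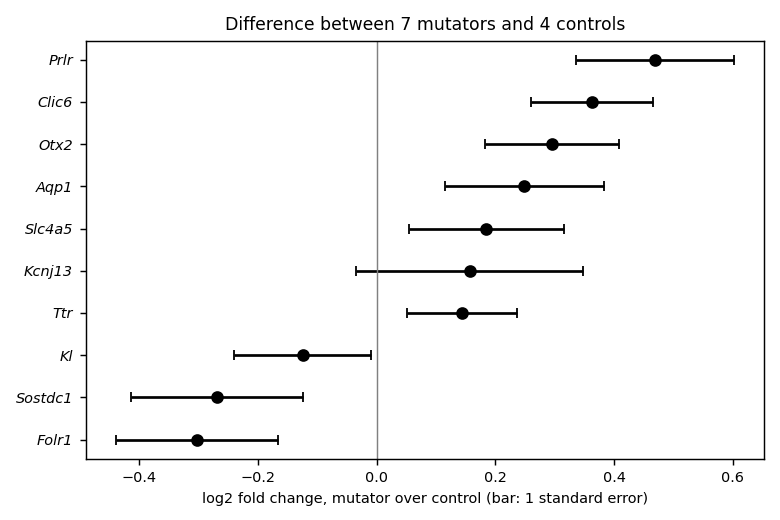
Log2 fold change of mutators over controls for each choroid plexus marker (horizontal axis), with 1 standard error as a bar. The values run from -0.30 for Folr1 to 0.47 for Prlr, and none passed an adjusted p of 0.05 in edgeR.

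Over the 11 mice the highest CPM exceeded the lowest by 1.49 times for Ttr and by 2.33 times for Kcnj13, with the other markers between these values. The median coefficient of variation of the markers was 18.1%, against 7.32% over the 12470 genes with a mean CPM at or above that of the lowest marker. This set was not matched to the markers in level, and the part of counting error in the difference was not tested. Mutator 207 was among the 3 lowest mice for 7 of the 10 markers and was the lowest for 4. Control 239 was among the 3 lowest for 6 and the lowest for 3. Mutator 236 was among the 3 highest for 6 markers. Neither mutator 207 nor control 239 was among the 3 highest for any marker, and mutator 236 was never among the 3 lowest. Control 246 was among the 3 highest for 4 markers and among the 3 lowest for 4.

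Over all pairs of markers, Pearson's r of the log2 CPM (prior count 2) had a median of 0.31, with 35 of 45 pairs above 0 and 10 below. The values ran from -0.57 for Folr1 and Prlr to 0.92 for Clic6 and Prlr. An r of 0.7 or more was reached by 3 pairs. Without mutator 207 the median was 0.20, with 31 pairs above 0 and 14 below, and 1 pair was at 0.7 or more. With the 2 mice farthest from the median of the first gene of each pair left out, the median was 0.18 and 1 of the 3 pairs stayed at 0.7 or more. Kl with Folr1, at 0.61 over all mice, rose to 0.82 in that setting, without mice 207 and 249. Within the 7 mutators, mouse 207 included, the median was 0.48 and 10 pairs were at 0.7 or more. For single markers over all mice, the share of all genes tested that reached 0.7 lay between 0.567% for Slc4a5 and 4.27% for Prlr. No such share was computed within the 7 mutators, so the count of 10 pairs there has no background to be set against. For Kl the mice fell into separate clusters, since the gap between mutator 207 and the next mouse was 51.0% of its log2 range, so no p is given for its 9 pairs over all mice. Among the other 36 pairs, 1 had an adjusted p under 0.05 by Pearson's r and 0 by Spearman's rho (permutation tests with 100000 resamples, 2-sided, Benjamini-Hochberg over 36 pairs), and 3 and 4 had an unadjusted p under 0.05.

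**Figure D3:**
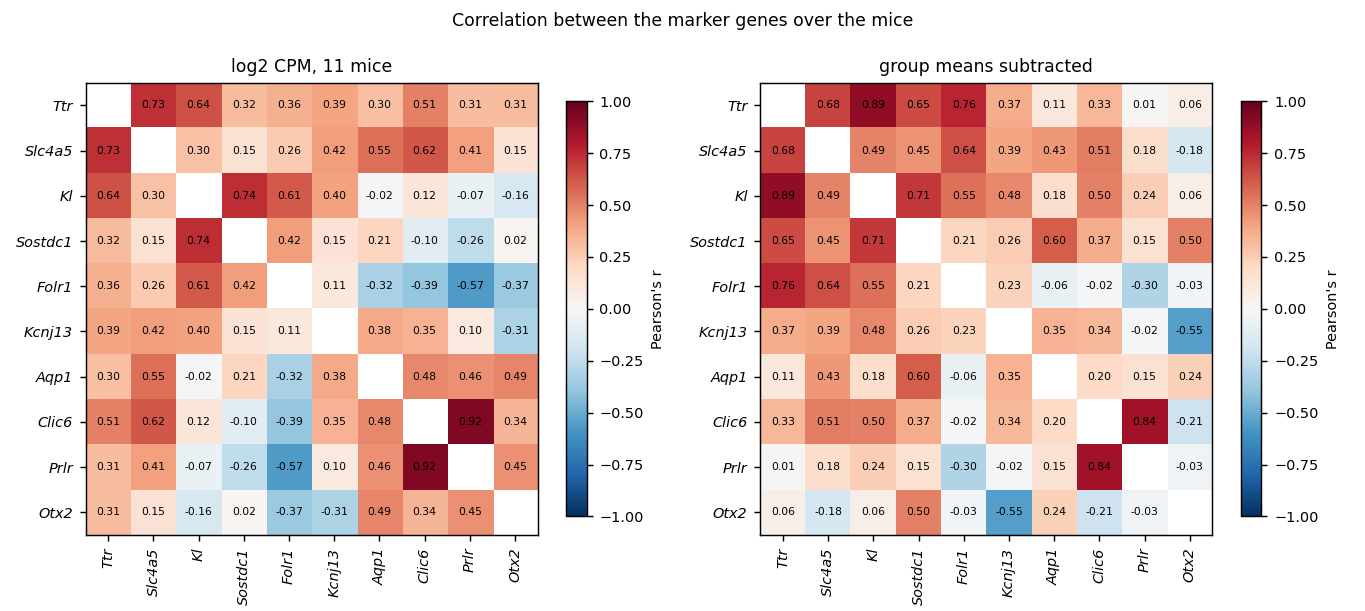
Pearson's r for each pair of choroid plexus markers, with blue for negative and red for positive values, on log2 CPM over 11 mice (left) and after the mean of each group was subtracted (right). Clic6 and Prlr have the highest value on the left (0.92), and Ttr and Kl the highest on the right (0.89).

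The pair with an adjusted p under 0.05 was Clic6 and Prlr, with r = 0.92 (permutation p = 0.00020, adjusted p = 0.0072) and rho = 0.79 (permutation p = 0.0053, adjusted p = 0.123). Control 246 was the lowest mouse for both genes. Without mice 207 and 246, the farthest from the median of Clic6, r was 0.86. With the group means subtracted it was 0.84 (permutation p = 0.00307, adjusted p = 0.0553), and within the 7 mutators it was 0.76, a group in which Clic6 itself fell into separate clusters. With single mice left out r stayed between 0.85 and 0.94. Without control 246 it was 0.85 and the permutation adjusted p was 0.0734, so the call depends on that library. Without control 237, Prlr fell into separate clusters and the pair had no test. The other 2 pairs with an unadjusted p under 0.05 were Ttr with Slc4a5, with r = 0.73 and rho = 0.77 (permutation p = 0.0107 and 0.00686, adjusted p = 0.192 and 0.123), and Clic6 with Slc4a5, with r = 0.62 and rho = 0.64 (permutation p = 0.0418 and 0.0410, adjusted p = 0.501 and 0.369). Without the 2 farthest mice these fell to r = 0.37 and r = 0.48. Without mutator 249, Ttr and Slc4a5 had r = 0.89 and a permutation adjusted p of 0.0261.

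**Figure D4:**
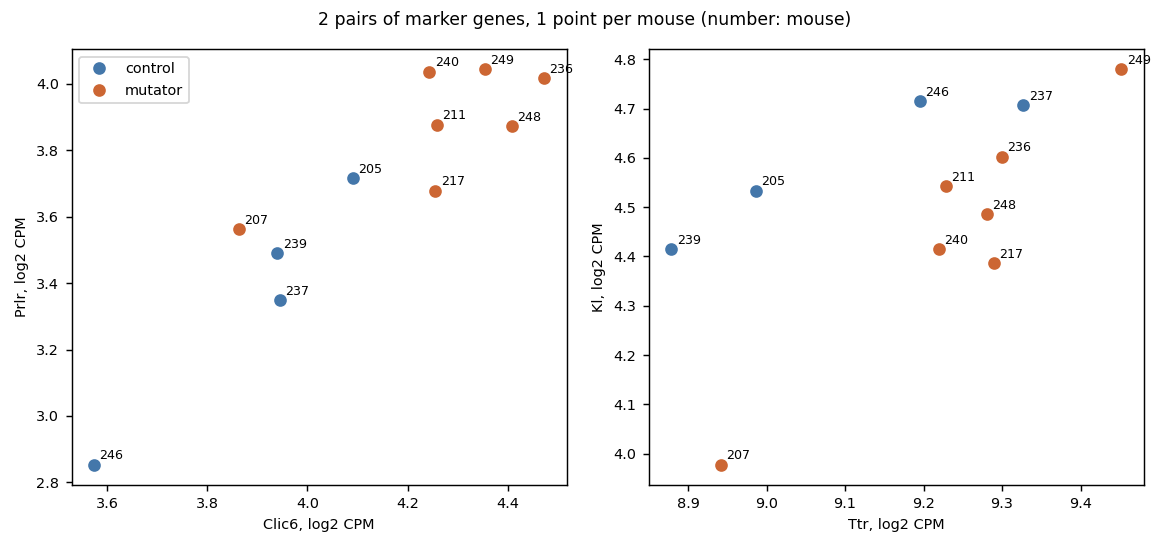
Log2 CPM of Prlr against Clic6 (left) and of Kl against Ttr (right), 1 point per mouse with its number, controls in blue and mutators in orange. Control 246 is lowest for both genes on the left, and mutator 207 lies below the other 10 mice for Kl on the right.

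For Ttr and Kl the value of r differed between settings. Over all mice their r was 0.64, with no test because of mouse 207. With the group means subtracted and mouse 207 included it was 0.89 (permutation p = 0.00072, adjusted p = 0.0259). Within the mutators alone, both genes fell into separate clusters. Over the 10 mice without 207, r of Ttr and Kl was 0.50, with a permutation p of 0.137 and an adjusted p of 0.522 over 45 pairs. Group means were not subtracted there, so the parts of the groups and of mouse 207 were not tested. Over the same 10 mice, Kl and Sostdc1 had r = 0.51 (permutation p = 0.137) and Kl and Folr1 r = 0.57 (permutation p = 0.0846), both with an adjusted p of 0.522. Otx2 had r between -0.37 and 0.49 with the other 9 markers over the 11 mice, and 0 of the 8 pairs tested, those without Kl, had an adjusted p under 0.05. Against log2 of the total count, r over the 9 markers other than Kl ran from -0.49 for Ttr to 0.38 for Prlr (permutation p = 0.125 and 0.244, adjusted p = 0.543 and 0.550, over 9 relations), and rho from -0.46 for Sostdc1 to 0.18 for Aqp1 (permutation p = 0.154 and 0.596, adjusted p = 0.733 and 0.881). For Kl r was -0.52 and rho was -0.65, with no test. Without the 2 mice farthest from the median depth, r was -0.86 for Sostdc1 (against -0.46 over all mice), -0.65 for Kl and -0.044 for Prlr. Control 246, the lowest mouse for Prlr and Clic6, was the shallowest library, and control 205, the highest control for both, was the deepest. With log2 total count as covariate, the log2 fold changes of Prlr and Clic6 were 0.49 and 0.37 (edgeR adjusted p = 0.0541 and 0.0771). The part of depth in the values of Sostdc1 and Kl was not tested, nor in those of Prlr and Clic6 beyond these values.

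Among 30 other choroid plexus genes, all of them tested, 18 had a log2 fold change above 0, and the median was 0.070. Of these genes 1 was higher and 1 lower at an adjusted p under 0.05, where 0.439% and 0.801% of all genes tested were. DESeq2 called 4 higher and 1 lower, adding Col8a1, Ace and F5, where 1.52% and 2.42% of genes with an adjusted p were. At an unadjusted p under 0.05 in edgeR, 7 were higher and 2 lower, against 7.18% and 8.58% of all genes tested. In Igfbp2, an IGF binding protein, the mean fell from 25.5 ± 3.3 to 18.1 ± 1.7 CPM (SD; 4 and 7 mice), which is a log2 fold change of -0.49 (SE 0.080, edgeR adjusted p = 0.00337). The highest mutator, at 21.4 CPM, was just below the lowest control, at 21.5. The adjusted p of Igfbp2 was at most 0.0342 in the 17 alternatives run. Wdr86, a WD repeat gene, rose from 1.72 ± 0.22 to 3.01 ± 0.80 CPM (SD; 4 and 7 mice), which is a log2 fold change of 0.78 (SE 0.18, edgeR adjusted p = 0.0410). Its lowest mutator, at 2.03 CPM, was above its highest control. The call of Wdr86 was lost in 7 alternatives, those without mice 211, 236, 237, 239, 246, 248 or 249, where the edgeR adjusted p reached 0.163.

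The standardized log2 CPM of the 10 markers was averaged per mouse, and other genes were ranked by Pearson's r with that mean over the 11 mice. The other choroid plexus genes had a median r of 0.39 and 7 of 30 were at 0.7 or more, as were 1.17% of all genes tested. Of the genes on that list called in edgeR, Igfbp2 had r = -0.18 and Wdr86 r = 0.61. The ependyma list had a median of 0.33 and the leptomeninges list one of 0.29, with 0 genes at 0.7 or more in either. Over all genes tested the median was -0.0090. The mean of the markers was lowest in mutator 207 (-1.09) and control 239 (-0.90), apart from the other 9 mice, which lay between -0.27 and 0.60. Without these 2 mice the median r was 0.25 for the other choroid plexus genes, with 3 of 30 at 0.7 or more, against 1.41% of all genes tested. It was then 0.20 for ependyma and 0.45 for leptomeninges, so the choroid plexus list no longer had the highest median of the 3. For the hypothalamus list the median was 0.19 over the 11 mice and 0.50 without these 2. For the fenestrated vessel and blood list it was 0.12 and 0.36. Without the 2 mice, both of these lists were also above the other choroid plexus genes. The 10 genes most alike were Abca9 (r = 0.96), Pla2g4c (0.93), Wdr60 (0.92), 2310008H04Rik (0.90), Acrbp (0.89), Sdccag8 (0.89), Tmem72 (0.88), Itga1 (0.87), Amd2 (0.86) and Jam3 (0.86). Without the same 2 mice their r lay between 0.49 for Itga1 and 0.90 for Abca9. Of these, Tmem72 was on the list of other choroid plexus genes. It had 2.83 CPM on average in the controls and 3.46 in the mutators (edgeR adjusted p = 0.385). From inspection after the values were seen, the list genes Col8a1 and Col9a3, which encode collagen chains, were among the 3 genes most alike to Clic6 (r = 0.93) and to Slc4a5 (r = 0.92). No other gene among the 3 most alike to any of the 10 markers was on the list of other choroid plexus genes.

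**Figure D5:**
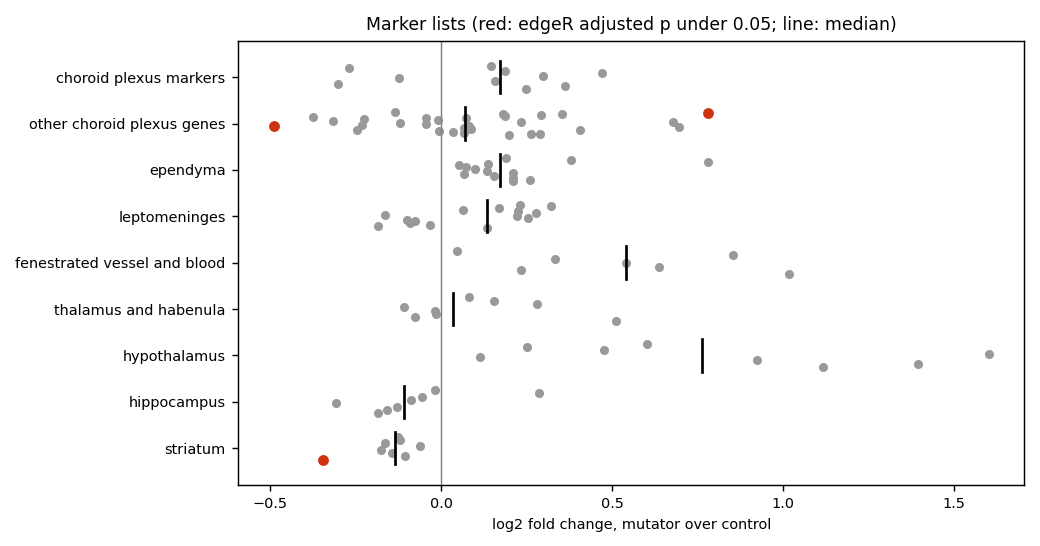
Log2 fold change of mutators over controls (horizontal axis) for each tested gene of the cell type and region lists, with the median of each list as a line and genes at an edgeR adjusted p under 0.05 in red. The choroid plexus markers have a median of 0.17, and the hypothalamus list one of 0.76.

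Cells that border the plexus were measured in the same libraries. Of the 15 ependyma genes, 14 were tested and all 14 had a log2 fold change above 0, with a median of 0.17. Over all genes tested, 50.4% had a value above 0. None of the 14 passed the adjusted p in edgeR or DESeq2. At an unadjusted p under 0.05 in edgeR, 3 were higher, against 7.18% of all genes tested. The summed level of the ependyma genes was 62.3 to 70.3 CPM in the controls and 62.8 to 80.97 in the mutators. Ccdc39, needed for motile cilia, differed by 0.21 on the log2 scale (SE 0.078, edgeR adjusted p = 0.186), and Foxj1, the factor that drives ciliated cells, one of 0.097 (SE 0.12, edgeR adjusted p = 0.756), which was 0.0067 without mutator 217 and 0.039 without control 239. The 15 genes of the leptomeninges list had a median of 0.13, with 0 passing in edgeR or DESeq2. At an unadjusted p under 0.05 there were 4, all higher in the mutators. The summed level of this list was 113.8 to 129.3 CPM in the controls and 115.1 to 153.7 in the mutators. Dcn, a proteoglycan of fibroblasts, gave -0.099 on the log2 scale (edgeR adjusted p = 0.668), and the transporter Slc6a20a one of 0.23 (edgeR adjusted p = 0.195). The part of these cells in the marker values was not tested.

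The pathways around single markers held few calls. Of 12 genes of thyroid hormone and retinol handling, the cargo of transthyretin, 1 was higher and 0 lower at an adjusted p under 0.05. Over all genes tested, 0.439% and 0.801% were. At an unadjusted p under 0.05, 1 of the 12 was higher and 3 lower, against 7.18% and 8.58% of all genes tested. DESeq2 called 1 higher and 2 lower, Slco1c1 and Rbp4, where 1.52% and 2.42% of genes with an adjusted p were. Stra6, the receptor for retinol binding protein, rose from 7.10 ± 0.73 to 11.1 ± 2.0 CPM (SD; 4 and 7 mice), which is a log2 fold change of 0.65 (SE 0.13, edgeR adjusted p = 0.0169). Its adjusted p was 0.0596 without control 237 and 0.0618 without control 239. Of 12 tested partners of Sostdc1 in BMP and Wnt signalling, 1 was higher and 0 lower at an adjusted p under 0.05. Over all genes tested, 0.439% and 0.801% were. At an unadjusted p under 0.05 in edgeR, 1 was higher and 2 lower, against 7.18% and 8.58% of all genes tested. The median log2 fold change of the list was 0.020. DESeq2 also called 1 higher, against 1.52% of genes with an adjusted p. Wnt5a, a secreted Wnt ligand, rose from 10.8 ± 0.7 to 13.0 ± 0.5 CPM (SD; 4 and 7 mice), which is a log2 fold change of 0.28 (SE 0.068, edgeR adjusted p = 0.0476). The call of Wnt5a was lost in 10 of 17 alternatives, up to an adjusted p of 0.190. These were the fit with no filter and those without mice 207, 211, 236, 237, 239, 240, 246, 248 or 249.

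None of the tested genes in the other pathway lists passed in edgeR or DESeq2. Around Kl, the median log2 fold change of 9 genes was 0.044, with Fgfr3, an FGF receptor, at 0.044 and Bace1, a protease, at -0.054 (edgeR adjusted p = 0.860 and 0.522). Around Folr1, 9 folate genes had a median of 0.036, with the folate enzyme Mthfd1 at 0.016 (edgeR adjusted p = 0.906). The 16 genes of ion and water transport in cerebrospinal fluid had a median of 0.0090, with the sodium pump subunit Atp1b1 at 0.0015 (edgeR adjusted p = 0.992). Of 9 tested genes of prolactin signalling the median was -0.039, with Stat3 at 0.086 and Jak2 at 0.11 (edgeR adjusted p = 0.388 and 0.377). The numbers of genes with an unadjusted p under 0.05 were 0, 2, 3 and 1 in these 4 lists, where all genes tested gave 15.8%.

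Exon bins, the pieces of a gene between annotated exon borders, were counted for the 3 WT/WT controls and the 7 mutators. Of the bins of the 10 genes, 82 had enough counts to be tested, and 0 had an adjusted p under 0.05 with edgeR's diffSpliceDGE, against 49 of the 206930 bins tested (0.0237%). At an unadjusted p under 0.05 there were 2, against 1.9% of all bins, and limma's diffSplice also called 0. The 4 bins of Ttr held 12.4%, 24.1%, 33.2% and 30.4% of its bin counts in the WT/WT mice and 12.6%, 24.3%, 32.8% and 30.3% in the mutators. The summed bins of a marker followed its gene level over the 10 mice, with r from 0.938 for Folr1 to 0.999 for Ttr. For Folr1 the summed bins were 1.75 to 2.14 times its gene count, against 0.575 to 1.16 times for the other markers. The reason was not tested, so the level of Folr1 is less certain. The 2 bins with an unadjusted p under 0.05 were numbers 16 of Otx2 and 26 of Prlr. Bin 16 of Otx2 held 4.53% ± 0.90 of all bin counts of the gene over the 3 WT/WT mice and 3.10% ± 0.67 over the 7 mutators (SD), on a mean of 11.1 counts. Bin 26 of Prlr held 13.1% ± 2.7 and 10.3% ± 1.4 (SD, 3 and 7 mice). Bin 27 of Prlr held most of its counts, 52.7% ± 5.0 in the WT/WT mice. The bins of Prlr belong to a group merged with Agxt2, of which 13 of 58 were tested.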

How the data were processed

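Total RNA of frozen cerebral tissue from 11 mice was made into poly(A)+ libraries and sequenced as 100 base paired ends. Reads were mapped by the authors with TopHat2 2.0.6 and Bowtie2 (mm9) and assigned to Ensembl genes with HTSeq 0.5.3p9, and the raw counts per gene were deposited. They also deposited raw counts per exon bin for 10 mice. Reads in no bin, 20.6% to 23.4% of each exon file, were left out. The deposited DESeq and DEXSeq tables, which hold the authors' own fold changes, p-values and means, and the table of read totals were not used.

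For gene counts, the quasi-likelihood test of edgeR 4.0.16 (R 4.3.3) was used with filterByExpr, TMM factors and robust dispersions, with Benjamini-Hochberg adjustment over the genes tested. Each standard error is the absolute log2 fold change divided by the square root of F. Alternatives were DESeq2 1.42.0, RLE and upper-quartile scaling, the absence of a filter, a minimum mean count of 10, log2 total count as covariate and leaving out each mouse. Exon bin usage was compared by diffSpliceDGE of edgeR, with limma 3.58.1 as alternative. Correlations used permutation tests with 100000 resamples, exact ones for the 7 mutators. A gene whose largest gap between neighbouring mice exceeded 50% of its log2 range got no p. Likeness to the mean of the markers was also computed without the 2 mice farthest from its median, a choice made after seeing the data. The tests were tried on simulated data. Positions and exonic lengths are from GENCODE M1 on NCBIM37, which is mm9 but a later annotation than the authors' one. All of the 10 markers are named, from each list the genes under an adjusted p of 0.05 (at most 4) or otherwise the 2 with the highest mean CPM (2 of these genes are not reported here), and the 10 genes most like the markers' mean. The markers and lists were chosen with earlier results of these data known. The controls were littermates of mutators, but which mice shared a litter or a sequencing pool is not given in the sources used here, so neither could enter a test. In the ependyma and thalamus lists, 1 symbol each was not in the table.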

Additional observations from a re-analysis of the deposited data

Results flagged for a closer look

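For every marker, the distance from the lowest or highest mouse to the next one, as a share of the range in its group (4 controls or 7 mutators), was compared with the critical value of Dixon. Of 20 groups, 2 exceeded it, where chance gives about 1 (1 in 20). Mutator 248 was lowest for Otx2 (0.681), with 3.94 CPM against 5.29 to 5.92 in the other mutators. Mutator 207 was lowest for Clic6 (0.573), with 14.5 CPM against 18.9 to 22.2 in the others.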

How the results depend on the processing

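The direction of the log2 fold change held for each of the 10 markers in all 17 alternatives, and 166 of 170 values stayed on their side of the threshold. The number of markers with an adjusted p under 0.05 was 2 with DESeq2, Clic6 and Prlr, and between 0 and 1 with single mice left out, the 1 being Prlr without control 205 or Clic6 without mutator 207. The number of other list genes called was 5, became 13 with DESeq2 and ranged from 1 to 8 with single mice left out. The whole table held 223 calls, 622 with DESeq2 and 50 to 412 with single mice left out. The number of correlated pairs was 1, became 0 within the 7 mutators, where 15 pairs could be tested, and ranged from 0 to 2 with single mice left out. It was 0 without control 246 and without control 237, where the tested pairs fell to 28 and 21, and 2 without mutator 249. The number of marker exon bins called was 0 in each of the 12 alternatives. With single mice left out, the log2 fold change of a few list genes near 0 changed sign, from -0.045 to 0.011 for Wfs1, from -0.0070 to 0.10 for Fgfr3, from -0.0020 to 0.034 for Mthfd1 and from -0.023 to 0.025 for Atp1b1. No paired analysis was possible because each mouse number occurs in 1 group only. Markers of 95 to 875 counts per mouse, such as Aqp1 and Kcnj13, carry more counting error than Ttr.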

Other observations

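Of 8 striatal genes, 0 were higher and 1 was lower at an adjusted p under 0.05 in edgeR, against 0.439% and 0.801% of all genes tested. At an unadjusted p under 0.05, 3 were lower, against 8.58% of all genes tested. DESeq2 called 2 lower, Adora2a and Penk, against 2.42% of genes with an adjusted p. In edgeR all 8 had a log2 fold change below 0, with a median of -0.13, while 50.4% of all genes tested were above 0. For Adora2a, the adenosine receptor of striatal projection neurons, the level fell from 44.6 ± 7.0 to 35.03 ± 2.70 CPM (SD; 4 and 7 mice), which is -0.35 on the log2 scale (SE 0.079, edgeR adjusted p = 0.0376). Its call was lost without mice 207, 211, 217, 236, 237, 240 or 246, with an adjusted p of at most 0.190. The 8 hippocampal genes had a median of -0.11 and 0 calls in edgeR or DESeq2, with 2 lower at an unadjusted p under 0.05. Wfs1 and Neurod6 had log2 fold changes of -0.020 and -0.089 (edgeR adjusted p = 0.903 and 0.596). The 8 tested genes of thalamus and habenula had a median of 0.033 and 0 calls in edgeR or DESeq2. At an unadjusted p under 0.05, 2 of them were higher, against 7.18% of all genes tested. There, the glutamate transporter Slc17a6 had a log2 fold change of 0.28 and the kinase Prkcd one of -0.11 (edgeR adjusted p = 0.190 and 0.429).

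All 7 genes of fenestrated vessels and blood had a log2 fold change above 0, against 50.4% of all genes tested. Several of the 7 are globin genes with near-identical copies, so the 7 do not count as independent genes. The 7 had a median of 0.54, which is the value of a globin gene. There were 0 calls in edgeR or DESeq2 and 0 at an unadjusted p under 0.05. The globin genes varied between mice, with 61.3 ± 38.6 and 75.8 ± 31.0 CPM for Hbb-b1 and 18.6 ± 10.6 and 27.9 ± 12.2 for Hba-a1 in controls and mutators (SD; 4 and 7 mice; edgeR adjusted p = 0.761 and 0.530), and near-identical globin copies make the split between them uncertain.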
